A study of Sus scrofa with 2 samples.

Results

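The genes described here encode the FOS and JUN proteins that make up the transcription factor AP-1, the related factor ATF3, and the early response genes EGR1 and IER3, in PSI, a clone of smooth muscle cells from pig ileum. They were taken by name: FOS, FOSB, FOSL1, FOSL2, JUN, JUNB, JUND, ATF3, EGR1 and IER3. Of these 10 genes, 9 were paired with one of the 25880 gene identifiers in the table, and JUND was not analysed here. RNA-seq was performed in duplicate on the clone, cultured with antibiotics and 10% fetal bovine serum in DMEM, with no serum-starved, stimulated, tissue or other-cell sample. The series thus holds 1 group of 2 libraries from 1 clone, and no comparison between conditions was possible. The labels name no separate cultures, so each SD is the spread of the duplicate libraries, which may be technical.

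AP-1 is a dimer of proteins that share a basic leucine zipper (bZIP), a stretch that contacts DNA and pairs with a partner. JUN proteins pair with each other or with FOS proteins, whereas FOS proteins need a partner of another kind, usually JUN. FOS, FOSB, JUN, JUNB, ATF3, EGR1 and IER3 are classical immediate early genes, whose transcription starts within minutes of a stimulus such as serum without new protein synthesis and then shuts off, while FOSL1 and FOSL2 are known to be induced later and to stay on longer. In smooth muscle these genes are known to respond to stretch, injury and growth factors. RNA levels do not report AP-1 activity, which also depends on phosphorylation and on the stability of the proteins.

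Levels are given in FPKM, the number of fragments per kilobase of a gene scaled to the size of the library, which allows levels to be compared between genes. Replicate 1 had a total of 35176565 reads or read pairs and replicate 2 had 32217729, as recovered from the FPKM values, and a single read on 1 kb therefore counted as 0.0284 and 0.0310 FPKM. Of 8 smooth muscle markers, 7 reached 1 FPKM in both libraries, but their levels spread widely. ACTA2 had 702 and 685 FPKM, ACTG2 489 and 468, CNN1 253 and 255, LMOD1 45.0 and 45.2 and SMTN 40.4 and 38.8. TAGLN and DES were far lower, at 5.34 and 5.58 FPKM and at 2.74 and 3.06 FPKM. MYH11, a myosin heavy chain gene of smooth muscle, stood at 0.461 and 0.522 FPKM. Of 21 measured markers of other cells of the gut wall, 6 reached 1 FPKM, their sum was 15.8 and 15.3 FPKM, and CDH1, PTPRC and CDH5, which define epithelium, leukocytes and endothelium, were listed at 0. The 6 were PECAM1, an endothelial and blood cell adhesion gene (1.92 and 1.596 FPKM), CD68, a macrophage gene (1.17 and 1.32), the fibroblast genes PDGFRA (2.25 and 2.23), DCN (2.52 and 1.89) and LUM (1.65 and 1.61), and the mesothelial gene WT1 (4.70 and 4.80). The part of other cells in the levels below was not tested.

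Of the 9 measured genes, 6 had a mean above 20 FPKM, FOS and FOSB lay between 1 and 3 FPKM, and JUNB was listed at 0. With detection set at 1 FPKM in each library, 8 of the 9 were detected (88.9%), beside 40.9% of all identifiers and 61.5% of those with a symbol. The median of the 9 genes was 5.47 on the log2(FPKM + 1) scale, beside 0.22 over all identifiers, 2.29 over those with a symbol and 3.58 over the 10583 detected ones. The genes were chosen by name and not at random, so these shares describe them and do not test them.

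In the FOS family, the late members FOSL1 and FOSL2 were abundant and the immediate early members FOS and FOSB were low. FOSL1, which encodes FRA-1, a FOS protein without the strong activation domain of FOS itself, had 47.6 FPKM in replicate 1 and 46.0 in replicate 2. Its mean was 46.8 ± 1.16 FPKM (SD, n = 2), from 5166 and 4569 reads. FOSL2, which encodes the similar protein FRA-2, had 43.7 and 42.7 FPKM, with a mean of 43.2 ± 0.712 from 9181 and 8215 reads. Both FOSL1 libraries lay above both FOSL2 libraries, and the ratio of FOSL1 to FOSL2 was 1.09 in replicate 1 and 1.08 in replicate 2.

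FOS, which encodes the c-Fos protein, had 2.08 and 2.15 FPKM, a mean of 2.12 ± 0.0535 (SD, n = 2), from 197 and 187 reads. The exact Poisson 95% interval of these reads was 1.80 to 2.39 FPKM in replicate 1 and 1.86 to 2.49 in replicate 2, so FOS RNA was measured above 0 in each library. FOSB had 1.08 and 1.49 FPKM, a mean of 1.28 ± 0.294, from 37 and 47 reads. Its interval ran from 0.757 to 1.48 FPKM in replicate 1 and from 1.10 to 1.98 in replicate 2. In replicate 1 it thus reached below the detection level. The reads are minimum numbers, so a larger true number would narrow these intervals. With a coefficient of variation of 22.9%, FOSB had the largest relative spread of the 8 genes above 0, and also the fewest reads. Intervals cover counting error only, since the reads carry no molecular identifiers and several can come from 1 molecule.

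The level of FOSL1 was 22.9 times that of FOS in replicate 1 and 21.4 times in replicate 2. For FOSL2 these ratios were 21.0 and 19.8. FOSL1 and FOSL2 together made up 96.7% and 96.1% of the summed FPKM of the FOS family, and FOS and FOSB the other 3.34% and 3.95%. The order of FOSL1 or FOSL2 over FOS or FOSB was thus alike in both libraries, with gaps far beyond the spread between them.

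In the JUN family, JUN carried all of the measured RNA. JUN, which encodes c-Jun and can form AP-1 without a FOS partner, had 116 FPKM in replicate 1 and 124 in replicate 2. Its mean was 120.0 ± 5.08 FPKM (SD, n = 2), from 3629 and 3529 reads. JUN stood at 2.44 and 2.69 times the level of FOSL1 and at 56.0 and 57.4 times that of FOS.

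JUNB, which encodes a JUN protein with weaker activating power, was listed at 0 in both libraries. This 0 needs care: among 16 measured genes that nearly every cell uses, the ribosomal protein gene RPL29 was also listed at 0, and TPI1, a glycolytic enzyme gene, had 0.424 and 0.224 FPKM. Of all identifiers with a symbol, 14.5% were listed at 0 in both libraries. The same care is needed for the marker genes listed at 0 above and for MAF, MYOCD and ID1 below. The length used for JUNB cannot be read from a value of 0, and an upper limit in FPKM is therefore not given. In the RefSeq annotation no other gene model overlaps that of JUNB, and its nearest neighbour, PRDX2, lay 2611 bp away and had 42.9 and 41.6 FPKM. The annotation release and strand setting used for counting are not given, so these positions do not tell how reads of JUNB were assigned.

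The summed level of the measured JUN family was 1.23 times that of the FOS family in replicate 1 and 1.34 times in replicate 2, a mean of 1.29 ± 0.0754 (SD, n = 2). The JUN sum rests on JUN alone, and with JUND not analysed it is a lower limit of the family's RNA. A ratio of RNA levels is not a ratio of proteins.

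ATF3, a bZIP factor induced by many stresses that can pair with JUN proteins and often represses, had 21.9 and 22.9 FPKM. Its mean was 22.4 ± 0.649 FPKM (SD, n = 2), from 1615 and 1541 reads. JUN stood at 5.31 and 5.41 times the level of ATF3. The libraries differed by a factor of 1.04, and ATF3 was higher than FOS and FOSB and lower than FOSL1, FOSL2 and JUN in both.

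EGR1, a zinc finger factor that is induced through serum response factor and binds GC-rich promoters, had 49.1 and 47.9 FPKM. Its mean was 48.5 ± 0.854 FPKM (SD, n = 2), from 1791 and 1600 reads. Its relatives EGR2 and EGR3 were far lower, at 0.673 and 0.767 FPKM and at 0.204 and 0.195 FPKM. EGR1 thus stood at 72.9 and 62.4 times the level of EGR2 and at 241 and 246 times that of EGR3, the latter from 8 and 7 reads. NAB1 and NAB2, corepressors that bind EGR proteins, had 13.0 ± 0.0299 and 9.55 ± 0.268 FPKM. EGR4 was not analysed here.

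IER3, an early response gene that encodes a small membrane-associated protein linked to cell survival and to ERK signalling, was the most abundant of the 9 genes. It had 223 FPKM in replicate 1 and 208 in replicate 2, a mean of 215.6 ± 10.4 (SD, n = 2), from 6314 and 5400 reads. IER3 stood at 1.91 and 1.68 times the level of JUN. The early response genes IER2 and IER5, which share only the name with IER3, had 63.5 ± 0.972 and 55.3 ± 1.04 FPKM.

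**Figure D1:**
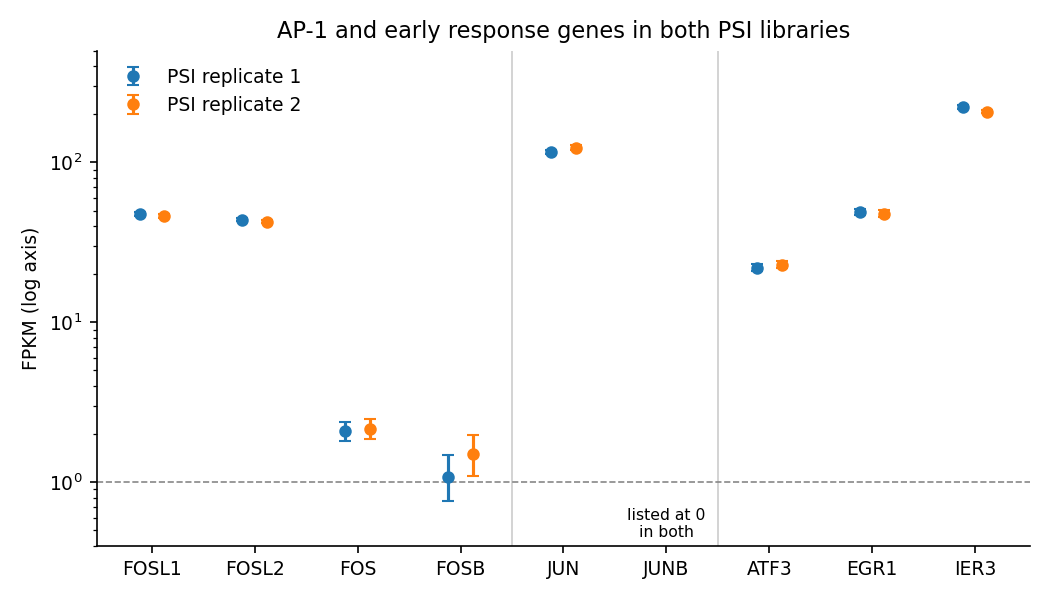
FPKM on a log axis of each measured gene in both libraries (points, PSI replicate 1 in blue and replicate 2 in orange), with the exact Poisson 95% interval of the recovered reads as the bar and a dashed line at 1 FPKM. FOSL1 and FOSL2 sit between 42.7 and 47.6 while FOS and FOSB sit between 1 and 3, JUN and IER3 lie at 116 or higher, and JUNB was listed at 0.

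By mean level the order was IER3, JUN, EGR1, FOSL1, FOSL2, ATF3, FOS, FOSB and JUNB. For each pair of neighbours in this order, both library values of the higher gene lay above both of the lower. The gap between EGR1 and FOSL1 was the narrowest, with a lowest EGR1 value of 47.9 and a highest FOSL1 value of 47.6 FPKM. Their counting intervals overlapped in both libraries. These intervals rest on minimum numbers of reads, so the overlap does not settle whether the 2 levels differ. FOS and FOSB had overlapping counting intervals in 1 of the 2 libraries, replicate 2. The widest step between neighbours above 0 was that from ATF3 to FOS, where the means differed 10.6-fold.

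Among all 25880 identifiers ranked by mean FPKM, IER3 stood at rank 214, JUN at 439, EGR1 at 1282, FOSL1 at 1339, FOSL2 at 1483 and ATF3 at 2984. FOS stood at rank 9638 and FOSB at 10399, near the end of the 10583 detected identifiers. The share of identifiers with a lower mean was 99.2% for IER3, 98.3% for JUN, 62.8% for FOS and 59.8% for FOSB. Taken as a set, the 9 genes made up 0.137% of all FPKM in replicate 1 and 0.135% in replicate 2, of which IER3 alone gave 44.2% and 42.1%.

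**Figure D2:**
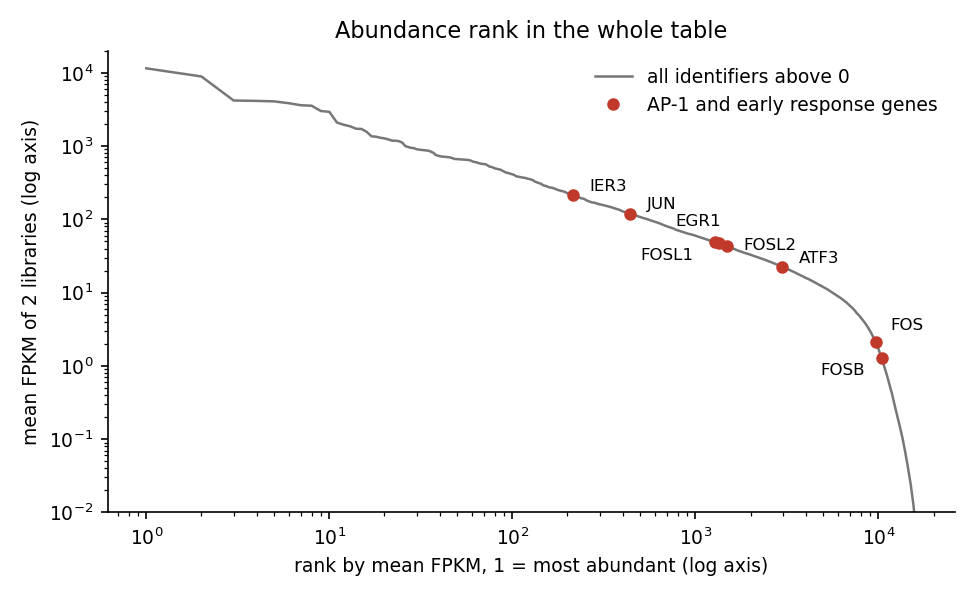
Mean FPKM of the 2 libraries against abundance rank, both on log axes, for all identifiers above 0 (grey line) and for the 8 AP-1 and early response genes above 0 (red points). IER3 (rank 214) and JUN (rank 439) lie on the upper part of the curve, and FOS and FOSB lie where it begins to drop steeply.

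For each gene, a two-sided exact binomial test set the reads of one duplicate against those of the other, a comparison of these libraries and of no condition. Of the 8 genes with reads, 1 passed a Benjamini-Hochberg adjusted p under 0.05, beside 182 of 16327 genes (1.11%) in the whole table. This was IER3, whose level in replicate 2 was 0.934 times that in replicate 1 (exact binomial test, adjusted p = 0.0281). JUN, higher in replicate 2 by a factor of 1.06, had a raw p of 0.0113 and an adjusted p of 0.252 in the same exact test. The reads tested are minimum numbers, so a gene that did not pass may still differ. FOSB had the largest ratio, 1.39, but with its 37 and 47 reads the exact test gave an adjusted p of 0.719. Of the 8 genes, 4 were higher in replicate 1 (FOSL1, FOSL2, EGR1 and IER3) and 4 in replicate 2 (FOS, FOSB, JUN and ATF3).

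**Figure D3:**
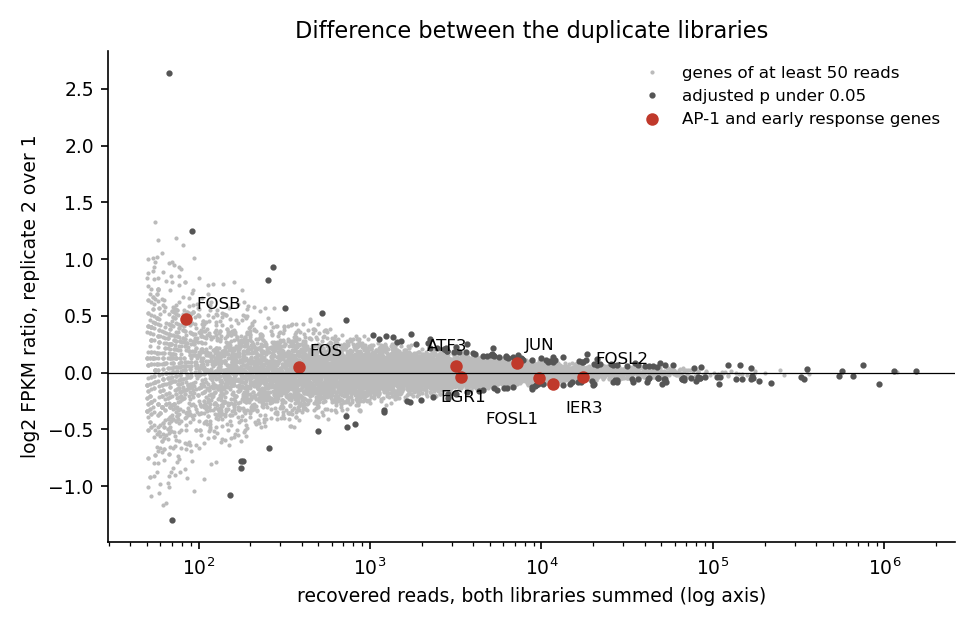
Log2 ratio of FPKM in replicate 2 over replicate 1 against the recovered reads of both libraries (log axis) for genes with at least 50 reads, with genes at an adjusted p under 0.05 in dark grey and the AP-1 and early response genes in red. Apart from FOSB, which has few reads, the red points lie close to 0.

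In the RefSeq annotation of the Sscrofa11.1 build, FOS lies on chromosome 7 from 98449508 to 98451971, FOSB on chromosome 6 from 51836780 to 51844531, FOSL1 on chromosome 2 from 6430158 to 6436173 and FOSL2 on chromosome 3 from 110820403 to 110842903. JUN lies on chromosome 6 from 153686425 to 153687635, JUNB on chromosome 2 from 66214086 to 66219435, and JUND on chromosome 2 from 59530991 to 59532846. ATF3 lies on chromosome 9 from 130772259 to 130829678, EGR1 on chromosome 2 from 140440829 to 140445302 and IER3 on chromosome 7 from 23265560 to 23266905. All 10 are protein-coding, and none overlaps another RefSeq gene model. The nearest neighbour of IER3, FLOT1, lay 394 bp away and had 8.61 and 8.89 FPKM, far below IER3. The identifiers in the table were ENSSSCG00000002383 for FOS, ENSSSCG00000012967 for FOSL1, ENSSSCG00000031912 for JUN, ENSSSCG00000013735 for JUNB and ENSSSCG00000027607 for IER3. Table values and positions were joined by symbol alone.

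A further list held other bZIP factors that pair with or resemble FOS and JUN proteins, with a median of 4.15 on the log2(FPKM + 1) scale. Of 22 measured, 18 reached 1 FPKM, beside 61.5% of all identifiers with a symbol. No gene of this list differed between the libraries by the adjusted exact binomial test, with 2 at an unadjusted p under 0.05. A share over all genes was not taken for the unadjusted counts, here or below. It is therefore not known whether these counts are more or fewer than among all genes. The 4 highest were NFE2L1 (106.8 ± 1.41 FPKM, SD, n = 2), CEBPB (55.3 ± 2.26), ATF6 (49.5 ± 1.23) and NFE2L2 (42.4 ± 0.733). NFE2L1 and NFE2L2 are factors of proteasome and antioxidant genes, CEBPB is a factor of inflammation and differentiation, and ATF6 is a sensor of the unfolded protein response. MAF was listed at 0.

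With the FOS, JUN and ATF3 genes added, 29 bZIP genes were measured, and JUN was the highest of them. Its lower library, at 116 FPKM, lay above the higher NFE2L1 library, at 107.8. By mean, FOSL1 and FOSL2 came in places 5 and 6, ATF3 in place 13, FOS in place 22 and FOSB in place 23. Places 6 and 23 were not settled. The library values of FOSL2 overlapped those of NFE2L2 (41.8 and 42.9 FPKM). Those of FOSB overlapped those of BATF2 (1.22 and 1.01) and of NRL (0.792 and 1.25). JUN gave 16.2% of the summed FPKM of these 29 genes, and FOS 0.287%. JDP2, a repressor that competes for JUN partners, had 28.1 and 26.0 FPKM, between FOSL2 and ATF3. ATF2, another partner of JUN, had 9.80 and 9.98 FPKM. The level of JUN was 11.9 and 12.4 times that of ATF2.

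**Figure D4:**
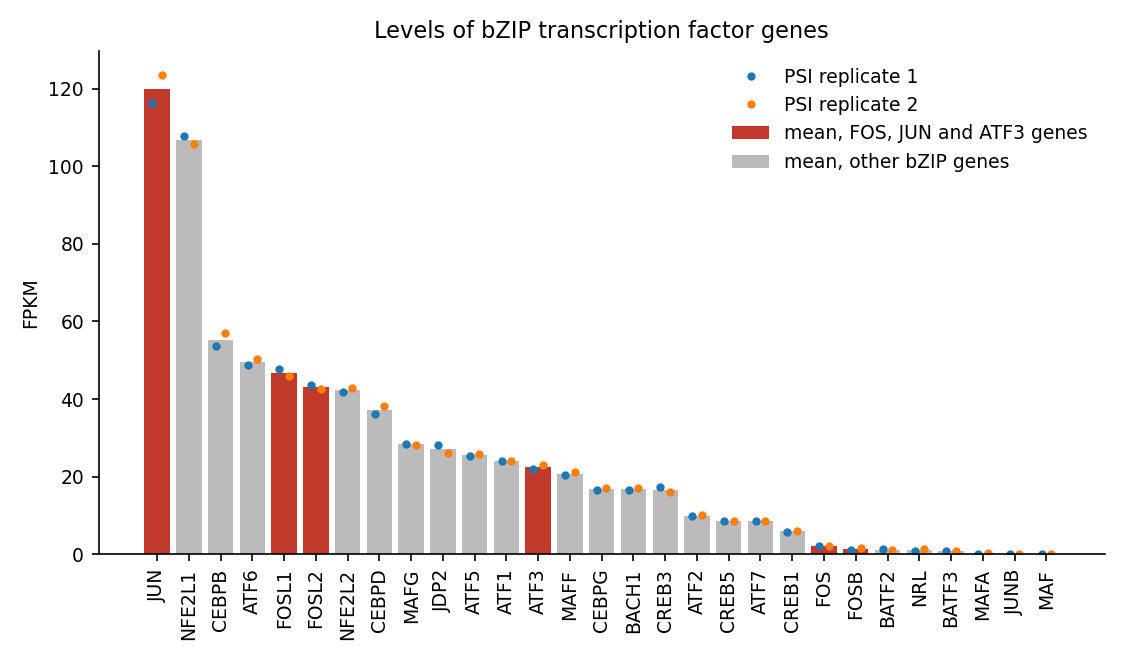
FPKM of 29 bZIP genes in descending order of the mean (bars, red for the FOS, JUN and ATF3 genes and grey for the others), with each library as a point. By mean, JUN leads, FOSL1 and FOSL2 take places 5 and 6, and FOS and FOSB stand in places 22 and 23. The library values of FOSL2 overlap those of NFE2L2, and those of FOSB overlap those of BATF2 and NRL.

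Kinases that signal to AP-1 were present at moderate levels. Of 26 measured genes of the MAP kinase cascade, 22 reached 1 FPKM, beside 61.5% of all identifiers with a symbol. The list median was 4.31 on the log2(FPKM + 1) scale. Among the highest were MAPKAPK2 (85.0 ± 0.863 FPKM, SD, n = 2), a kinase downstream of p38, MAP2K3 (60.2 ± 0.633), an activator of p38, and MAP2K2 (48.9 ± 0.0125), an activator of ERK. The kinases that phosphorylate c-Jun, JNK1 and JNK2, are encoded by MAPK8 and MAPK9. MAPK8 had 21.7 and 21.5 FPKM and MAPK9 had 19.7 and 19.5, while MAPK10, the neuronal JNK gene, had 0.106 and 0.0386 from 6 and 2 reads. No gene of this list differed between the libraries by the adjusted exact binomial test, with 1 at an unadjusted p under 0.05.

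Serum response factor, which drives FOS and EGR1 through a promoter element called the CArG box, was expressed from SRF at 47.0 and 48.2 FPKM. Its level was 22.6 and 22.4 times that of FOS, whereas EGR1 stood at 1.05 and 0.993 times the level of SRF, and the library values of EGR1 and SRF overlapped. Of the 6 measured genes of this list, 5 reached 1 FPKM, beside 61.5% of all identifiers with a symbol. The coactivator gene MRTFA had 26.0 ± 0.809 FPKM (SD, n = 2) and ELK3, a ternary complex factor that binds beside SRF, had 24.0 ± 0.716. ELK4, another such factor, had 8.68 and 10.1 FPKM and was the 1 gene of this list that differed between the libraries (exact binomial test, adjusted p = 0.0142). Over all 16327 genes tested, 1.11% differed, and 1 gene does not describe the list. At an unadjusted p under 0.05 the same test gave 2 genes of this list. MYOCD was listed at 0, which needs the same care as the value of JUNB.

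Of 29 other early response genes measured, 26 reached 1 FPKM, beside 61.5% of all identifiers with a symbol. The list median was 4.45 on the log2(FPKM + 1) scale. The 4 highest were CCN2 (294.8 ± 2.28 FPKM, SD, n = 2) and CCN1 (270.6 ± 1.08), which encode matricellular proteins, KLF6 (168.8 ± 1.49), a zinc finger factor, and MYC (122.7 ± 0.948), a growth regulator. Among the 38 early response genes formed with the 9 described above, IER3 came in place 3, after CCN2 and CCN1. CCN2 was 1.32 and 1.42 times as high as IER3. JUN came in place 6, next to MYC, and its ratio to MYC was 0.954 and 1.00, so their library values overlapped. FOS stood at 0.0170 and 0.0175 times the level of MYC. Low FOS was thus measured beside high levels of several other genes of this class. ID1 was listed at 0, and no gene of this list differed between the libraries by the adjusted exact binomial test, with 3 at an unadjusted p under 0.05.

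Inhibitors that early response signalling induces against itself were also expressed. Of 18 measured, with a median of 3.60 on the log2(FPKM + 1) scale, 15 reached 1 FPKM, beside 61.5% of all identifiers with a symbol. None differed between the libraries by the adjusted exact binomial test, with 1 at an unadjusted p under 0.05. DUSP1, a phosphatase of MAP kinases that is itself an early response gene, had 43.6 ± 0.449 FPKM (SD, n = 2), 20.8 and 20.4 times the level of FOS. ZFP36L1, an RNA-binding protein that speeds the decay of AU-rich messages, had 41.4 ± 0.107. SPRY2, an inhibitor of receptor tyrosine kinase signalling, had 31.0 ± 0.444, and DUSP10, a phosphatase of JNK and p38, had 24.2 ± 0.862.

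All 11 genes for turnover and coactivation of AP-1 proteins reached 1 FPKM, beside 61.5% of all identifiers with a symbol. Their median was 3.98 on the log2(FPKM + 1) scale. None differed between the libraries by the adjusted exact binomial test, with 1 at an unadjusted p under 0.05. Among the highest were ITCH (24.7 ± 1.41 FPKM, SD, n = 2), a ubiquitin ligase of JUN proteins, and COPS5 (20.5 ± 0.591), which encodes the c-Jun binding protein JAB1.

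Genes with textbook AP-1 sites in their promoters ranged from abundant to near 0. Of 20 measured, with a median of 5.36 on the log2(FPKM + 1) scale, 16 reached 1 FPKM, beside 61.5% of all identifiers with a symbol. Among the highest, IL11, a cytokine of the interleukin-6 family, had 259.4 ± 3.42 FPKM (SD, n = 2), TIMP1, a metalloproteinase inhibitor, 142.6 ± 3.69, and SPP1, which encodes osteopontin, 127.1 ± 1.64. At the other end, the collagenase gene MMP1, a classical AP-1 target, had 0.0117 and 0.0509 FPKM from 1 and 4 reads. MMP9 had 0.0378 and 0.0660, and MMP13 had 0.00902 in replicate 1 and was listed at 0 in replicate 2. Each of these genes has other regulators, and no binding of AP-1 was measured.

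**Figure D5:**
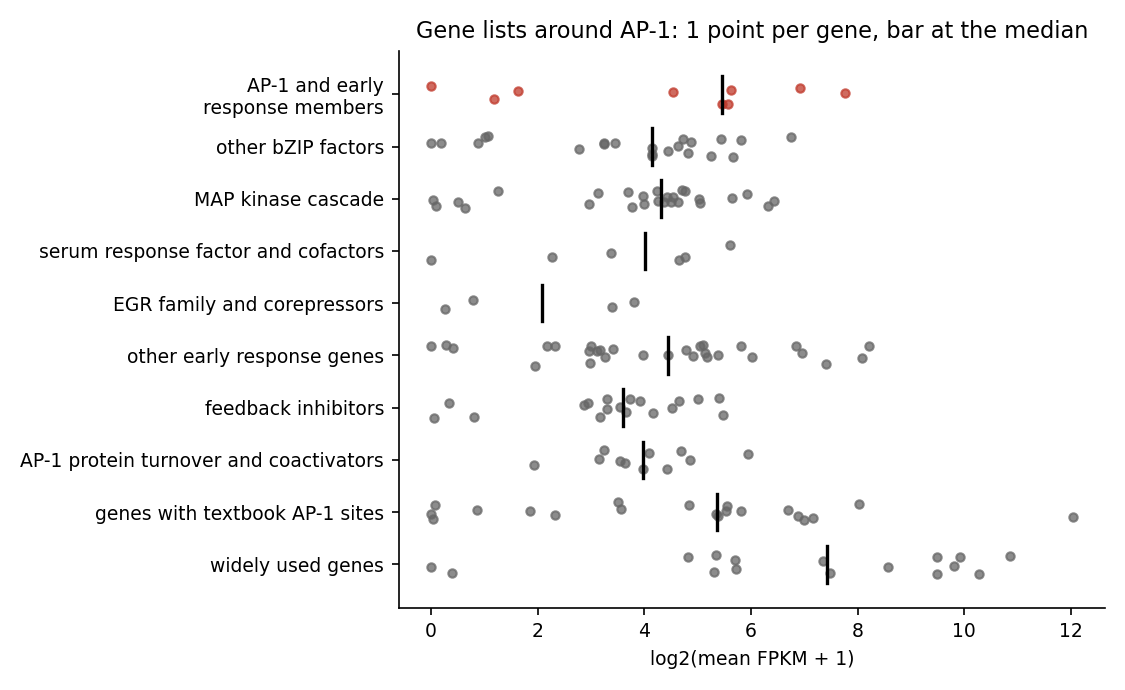
Log2(mean FPKM + 1) of each measured gene (points) in the AP-1 and early response genes (red) and in 9 other gene lists (grey), with the median of each list as a bar. The red points split into a group above 4 and a group near 0 to 2.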

How the data were processed

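Total RNA of the PSI clone was sequenced as 2 libraries (TRIzol extraction, NEBNext Ultra kit, per the labels' protocols). The submitters' processing notes name the aligner TopHat2 2.0.12, the counter HTSeq 0.6.1 and the build Sscrofa11.1, with strand setting, annotation release and filters not given in the sources used here. Deposited values are FPKM, and each library has its own column. A wrong gene model, or reads shared between genes, changes an FPKM value.

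Library totals were found as the numbers under which genes of 1 read have whole lengths. Reads per gene then came from the shortest length, 50 to 30000 bp, at which each of its values was a whole number of reads (tolerance 1.2 times the last-digit rounding). All 16327 genes above 0 gave whole reads (100%), which are minimum numbers. With respect to this choice of length, counting intervals are at their widest and the binomial test has its least power. Several reads from 1 molecule would make the counting error larger than shown. In a simulation of 2 libraries with 25880 genes, the totals were recovered, 85.3% of genes received their true reads and 0 received more. The binomial test called 94.5% of 200 genes changed 2-fold and 8 of 15487 unchanged ones. The simulated reads had Poisson counting error alone, and the changed genes were taken above a floor of reads. These rates therefore do not carry over to small differences or to other noise between the real libraries. Adjustment was over all genes with a read.

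Symbols were found for 14857 of 25880 identifiers. The pseudocount was 1 (Python 3.11.15, scipy 1.17.1). Members and lists were chosen with earlier results of these data known. Each list is named by its 4 highest genes, those at 0 and those that differed between libraries; some are not reported here, and others, such as MAPK8, JDP2, EGR2 and MMP1, were added for their known role once values had been seen. Alternatives varied pseudocount, detection level, filter, summary, scaling and the libraries included.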

Additional observations from a re-analysis of the deposited data

How the results depend on the processing

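The count of detected genes was 8 at 0.5 FPKM, beside 44% of all identifiers, and 6 at 5 FPKM, beside 29.6%, where FOS and FOSB were no longer counted. It was 8 to 8 without either replicate. The median of 5.47 on the log2 scale was 5.44 with a pseudocount of 0.1, where the median of all identifiers went from 0.22 to -1.997, so the gap between them depends on the pseudocount. It was 5.52 without JUNB, the 1 gene under 0.1 FPKM, and ran from 5.45 to 5.48 without either replicate. The JUN to FOS family ratio ran from 1.23 to 1.34 without either replicate. As a difference of family means of log2(FPKM + 1) it was -0.0083, because JUNB at 0 then weighs as much as JUN. Genes that differed between the libraries numbered 179 with scaling by the median ratio and 235 among genes with a mean of at least 1 FPKM. The second count comes from fewer genes than the 16327 of the main test, so its share is above the 1.11% found there. IER3 was the 1 member called in each of these tests and in the main one, with an exact binomial adjusted p from 0.0177 to 0.0281. Either rescaling of the libraries moved the mean FPKM of each of the 8 genes above 0 by less than its SD. Leaving out 1 of 2 libraries cannot move a mean by more than its SD and is no check of stability. Pairing through RefSeq identifiers was not run, since that column was empty. No paired analysis was possible because the series has 1 group. Depth limits FOSB most, and JUNB has no limit that depth could set.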

Other observations

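The NR4A orphan nuclear receptor genes, early response genes like FOS, also stood low in these cultures. NR4A1 had 3.52 and 3.48 FPKM in replicates 1 and 2, NR4A2 had 2.97 and 2.73, and NR4A3 had 0.268 and 0.392. ARC, an early response gene best known in neurons, had 0.193 and 0.242 FPKM from 20 and 23 reads. In the list with textbook AP-1 sites, the cytokine gene LIF stood close to FOSL1 and FOSL2, at 46.1 and 44.8 FPKM. HBEGF, an EGF receptor ligand, lay above both, at 56.2 and 55.0. Other cytokine genes of the list lay far from these levels. IL11, given above, was far higher, and CXCL8 (11.2 and 9.63 FPKM) and IL6 (4.03 and 4.05) were lower. The EGF receptor ligands AREG and EREG were lower than HBEGF, at 2.31 and 2.96 FPKM and at 0.857 and 0.809 FPKM. PLAU, the urokinase gene, had 102.4 and 102.5 FPKM, while its receptor gene PLAUR had 27.9 and 27.1. These genes were named after their values were seen.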
